A study of Homo sapiens with 6 samples.

Results

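TWIST1, TWIST2, SNAI1, SNAI2, ZEB1, ZEB2, PRRX1, RUNX1 and RUNX2 encode transcription factors known for setting and holding the mesenchymal state of cells. The 9 genes were chosen by symbol from a table of 60623 genes, and each had counts in every mRNA library. They were followed in MRC5 cells, a line of human lung fibroblasts, labelled with a wild-type genotype and harvested at 48 h. The control was labelled DMSO, the usual solvent for small compounds. Another group received TGF-β1, the cytokine that drives fibroblasts towards matrix-producing myofibroblasts. The last received luteolin, a plant flavonoid, together with TGF-β1, and is called the combination here. Where values of all 3 libraries stand in a row, their order is control, TGF-β1, combination. Doses are not given in the labels, and luteolin without TGF-β1 is not analysed here. Each group had 1 mRNA library and 1 miRNA library, so 6 libraries in all and no replicates. Intervals therefore cover counting error only, no test of the treatments was possible, and a difference between 2 libraries may also hold the difference between 2 cultures.

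TGF-β receptors phosphorylate SMAD proteins, which enter the nucleus and, with partner factors, switch on genes including those of the SNAI family. SNAI and ZEB proteins are zinc finger repressors that bind E-boxes and silence epithelial adhesion genes such as CDH1. TWIST proteins are basic helix-loop-helix factors that pair with E proteins, RUNX proteins pair with CBFB, and PRRX1 is a homeodomain protein of limb and connective tissue mesenchyme. In epithelia these factors mark a change of cell identity; fibroblasts already carry many of them.

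The mRNA libraries held 14609132 to 17876657 counts and the miRNA libraries 7533041 to 22277636. Levels are CPM, counts divided by the size of the library, after scaling by trimmed mean of M values (TMM), a method that sets the bulk of genes equal between libraries. A gene was compared where it reached 1 CPM in at least 1 of the 2 libraries, and was called higher or lower where the ratio was at least 2-fold and its exact 95% counting interval left out equality. All 10 fibroblast markers examined, among them COL1A1, COL1A2, PDGFRA and VIM, were above this limit. Of these, 2 were called higher and 2 lower (DCN and LUM) with TGF-β1, and 4 higher and 0 lower in the combination against TGF-β1. DCN had 1170, 168 and 760 CPM and LUM 222, 31.5 and 119 CPM, whereas COL1A1 had 8208, 17225 and 30153 CPM. The 10 markers had a summed level of 20536.5 CPM in the control, 30617.8 CPM with TGF-β1 and 52827.1 CPM with the combination. What part this shift has in the results was not tested. None of 10 markers of epithelial, endothelial and blood cells reached 1 CPM, and their counts summed to 13, 3 and 3 in the order of the libraries. EPCAM had 5, 1 and 2 counts and CDH1 had 1 in each library, while SFTPC, SCGB1A1, PECAM1, PTPRC and CD3E had none in any library. In bulk RNA, fewer cells expressing a gene and less of its RNA per cell cannot be told apart.

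With TGF-β1, SNAI1 and PRRX1 were each about 4-fold above the control, and the other 7 genes differed by less than 2-fold. With the combination, TWIST1, TWIST2, PRRX1 and RUNX2 were 2.21-fold to 4.83-fold below the TGF-β1 library. After TMM scaling, SNAI2, ZEB2 and RUNX1 lay within 1.05-fold of that library. Thus 2 of 9 genes were called higher and 0 lower with TGF-β1, against 3.70% of 13416 genes called higher and 6.67% called lower. Between the combination and TGF-β1, 0 of 9 were higher and 4 lower, against 12.5% and 14.8% of 13703 genes. Between the combination and control, 1 was higher (SNAI1) and 3 were lower (TWIST1, TWIST2 and RUNX2), against 12.4% and 17.1% of 13859 genes. The median log2 ratio of the 9 genes was 0.36, -0.74 and -0.34 in these 3 comparisons, beside -0.014, -0.04 and -0.08 for all genes compared. The 3 comparisons share libraries, so they are not independent of each other.

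Called genes with the combination depended on the scaling. Of those called against TGF-β1, 45.7% were higher after TMM scaling, 30.8% with total counts, 31.2% from the deposited TPM values and 58.1% with upper quartile scaling. Against the control the corresponding shares were 42.1%, 23.4%, 28.2% and 52.8%. The median log2 ratio of all genes against TGF-β1 moved to -0.27 with total counts, -0.26 with TPM and 0.15 with upper quartile scaling, and against control to -0.43, -0.34 and 0.11. With total counts the median for TGF-β1 over control was -0.14. None of the 4 lower calls against TGF-β1 changed direction under these settings, but PRRX1 fell short of 2-fold with upper quartile scaling, at a log2 ratio of -0.97. A change of scaling moves the ratios of all genes together, so calls close to 2-fold also depend on it. Examples are those of KDM1A, SIN3A, TNC, LOX, ITGA5 and PDGFRB against TGF-β1. The near-equality of SNAI2, ZEB2 and RUNX1 between the combination and TGF-β1 depended on it too. Their log2 ratios were -0.28, -0.22 and -0.15 with total counts and 0.11, 0.17 and 0.24 with upper quartile scaling, all under 2-fold.

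**Figure D1:**
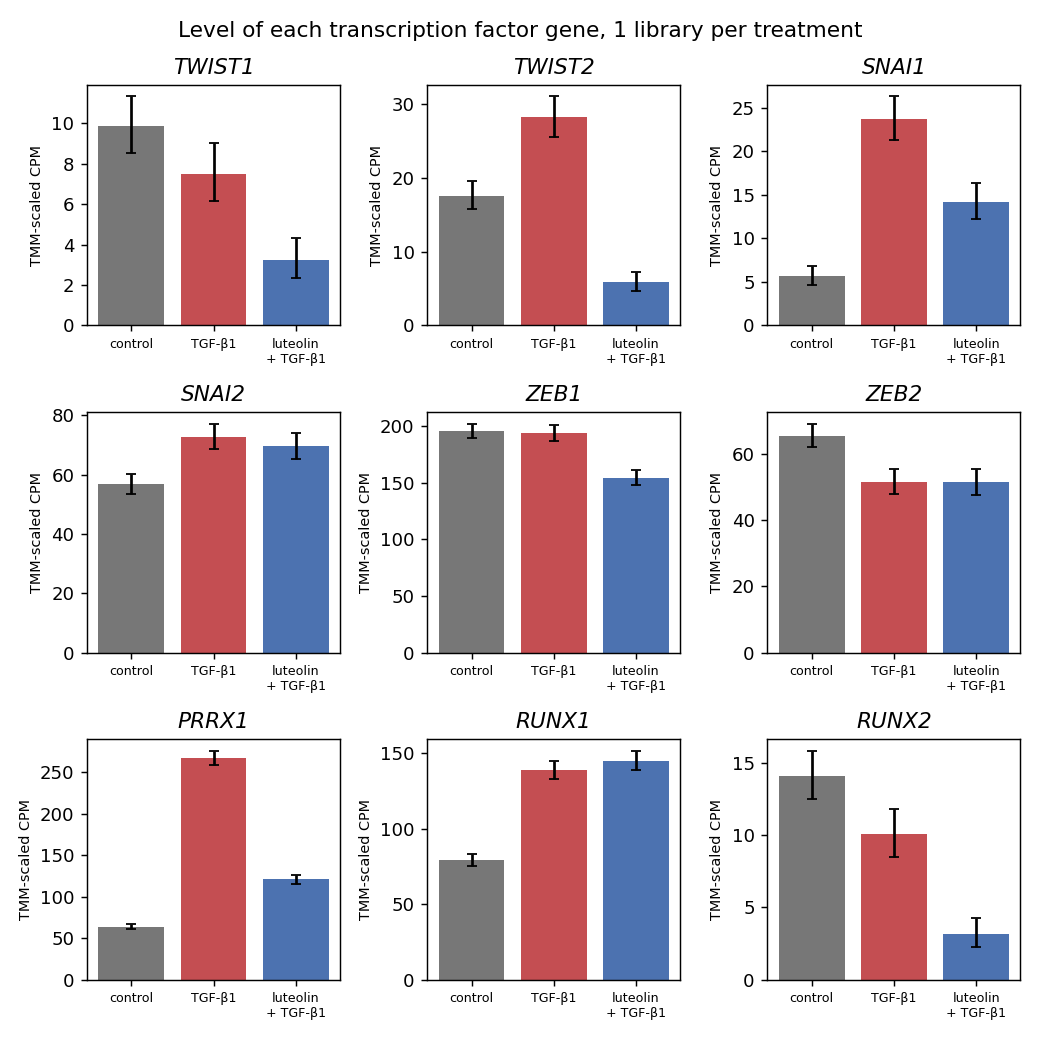
Level of each of the 9 genes in TMM-scaled CPM (linear axes from 0, a separate scale per gene) in each library; bars are single libraries and whiskers the exact 95% counting interval. SNAI1 and PRRX1 peak with TGF-β1, RUNX1 is high in both TGF-β1 libraries, and TWIST1, TWIST2 and RUNX2 are lowest with luteolin + TGF-β1.

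PRRX1 (ENSG00000116132; chromosome 1, 170662768 to 170739421, GRCh38) encodes a homeodomain factor that marks fibroblasts of limb and skin in mice. It had 1278 counts in the control, 3998 with TGF-β1 and 1654 with the combination, or 64.2, 268 and 121 CPM. The TGF-β1 library was the highest and the control the lowest. TGF-β1 over control gave a log2 ratio of 2.06 (95% interval 1.97 to 2.15), or 4.17-fold, and PRRX1 was 140th from the highest of the 13416 genes compared. The combination over TGF-β1 gave -1.15 (-1.23 to -1.06), or 2.21-fold lower. It remained above the control by 0.91 (0.81 to 1.02), which is under the 2-fold limit; with upper quartile scaling this ratio was 1.09 and passed it.

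SNAI1 (ENSG00000124216; chromosome 20, 49982980 to 49988886) encodes Snail, a short-lived zinc finger repressor. Its counts were 113, 354 and 194, or 5.68, 23.7 and 14.2 CPM. The order of the libraries was thus the same as for PRRX1. TGF-β1 over control gave 2.06 (1.75 to 2.38), or 4.18-fold, 139th from the highest. The combination over TGF-β1 gave -0.74 (-1.001 to -0.48), short of 2-fold, and the combination over control 1.32 (0.98 to 1.67), or 2.50-fold higher. The latter was 0.98 with total counts and then no longer past the limit.

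SNAI2 (ENSG00000019549; chromosome 8, 48917598 to 48921429) encodes Slug, the paralog of Snail that is prominent in neural crest and fibroblasts. It had 1129, 1087 and 951 counts, or 56.7, 72.8 and 69.5 CPM. Both TGF-β1 libraries lay slightly above the control after TMM scaling. The log2 ratios were 0.36 (0.24 to 0.48) for TGF-β1 over control and -0.07 (-0.19 to 0.06) for the combination over TGF-β1. Neither reached 2-fold, and the second interval held equality. The combination over control was 0.29 after TMM scaling, -0.05 with total counts and 0.04 from the deposited TPM values.

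TWIST1 (ENSG00000122691; chromosome 7, 19113047 to 19117636) encodes a basic helix-loop-helix factor required for cranial mesenchyme in mice. Its counts were 196 in the control, 112 with TGF-β1 and 44 with the combination, or 9.85, 7.50 and 3.22 CPM. The TGF-β1 library was a little below the control and the combination lowest. TGF-β1 over control gave -0.39 (-0.74 to -0.05) and the combination over TGF-β1 gave -1.22 (-1.76 to -0.71), or 2.33-fold lower. Against the control the combination was 3.06-fold lower, at -1.61 (-2.12 to -1.14).

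TWIST2 (ENSG00000233608; chromosome 2, 238848085 to 238910534) encodes the close paralog of TWIST1, known from dermis. It had 351, 422 and 80 counts, or 17.6, 28.3 and 5.85 CPM. Unlike TWIST1, it was highest with TGF-β1. The ratio was 0.68 (0.47 to 0.89), under 2-fold, for TGF-β1 over control and -2.27 (-2.64 to -1.92), or 4.83-fold lower, for the combination over TGF-β1. The combination was also 3.01-fold below the control, at -1.59 (-1.96 to -1.24), so TWIST2 lay below its control level and not between the other libraries.

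RUNX1 (ENSG00000159216; chromosome 21, 34787801 to 35049302) encodes a runt-domain factor best known from blood formation. Its counts were 1581, 2072 and 1983, or 79.4, 139 and 145 CPM. Both TGF-β1 libraries stood above the control and close to each other. TGF-β1 over control gave 0.81 (0.71 to 0.90), short of 2-fold, and the combination over TGF-β1 gave 0.06 (-0.03 to 0.15). The combination over control gave 0.87 (0.77 to 0.96), and 1.04 with upper quartile scaling, which passed the limit.

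RUNX2 (ENSG00000124813; chromosome 6, 45328330 to 45551082) encodes the runt-domain factor required for bone formation. It had 280 counts in the control, 150 with TGF-β1 and 43 with the combination, or 14.1, 10.05 and 3.14 CPM. As with TWIST1, the control was highest and the combination lowest. The ratio was -0.49 (-0.78 to -0.19) for TGF-β1 over control, -1.68 (-2.20 to -1.18) or 3.20-fold lower for the combination over TGF-β1, and -2.16 (-2.66 to -1.69) or 4.47-fold lower against the control. SUPT3H, which overlaps RUNX2, had 59, 63 and 36 counts; how the counting treated strand is not given in the sources used here.

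ZEB1 (ENSG00000148516; chromosome 10, 31318417 to 31529804) encodes a zinc finger and homeodomain repressor of epithelial genes. It had 3901, 2897 and 2112 counts, or 196, 194 and 154 CPM. After TMM scaling, control and TGF-β1 did not differ beyond counting error, at -0.014 (-0.08 to 0.06). The combination was lower than TGF-β1 by 0.33 on the log2 scale (ratio -0.33, -0.41 to -0.25). Its antisense neighbour ZEB1-AS1 had 108, 85 and 192 counts. ZEB2 (ENSG00000169554; chromosome 2, 144384081 to 144520119), the paralog of ZEB1, had 1304, 770 and 703 counts, or 65.5, 51.6 and 51.4 CPM. Its control was the highest library and, after TMM scaling, the others were nearly equal. The ratios were -0.35 (-0.48 to -0.22) for TGF-β1 over control and -0.0049 (-0.15 to 0.14) for the combination over TGF-β1. Neither ZEB gene reached 2-fold in any comparison.

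**Figure D2:**
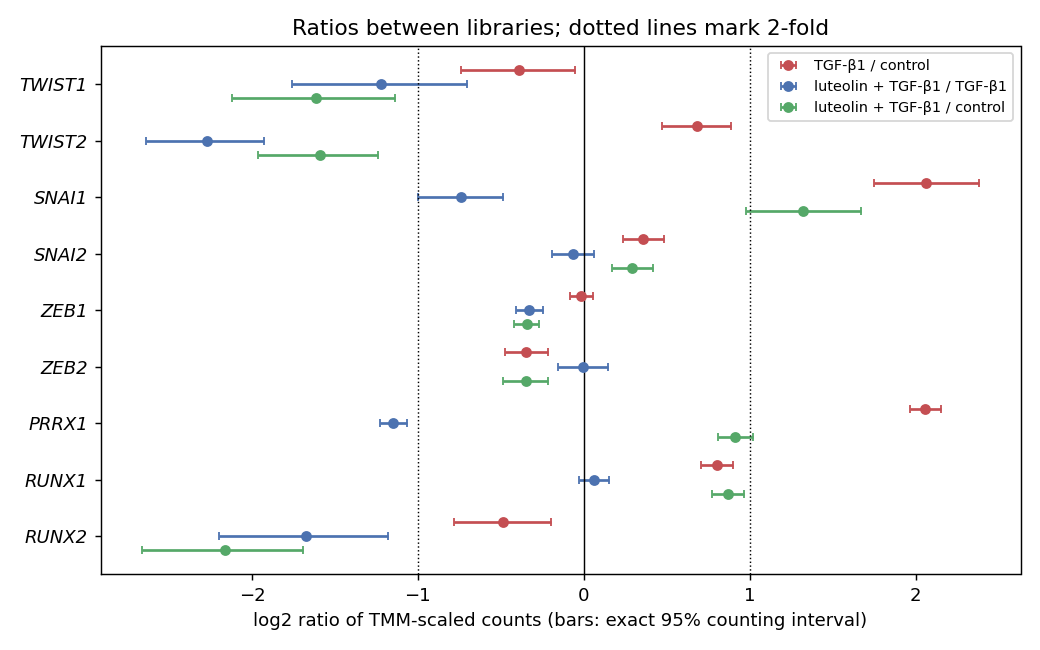
Log2 ratios of TMM-scaled counts for the 9 genes in each of the 3 comparisons between libraries (red, TGF-β1 over control; blue, luteolin + TGF-β1 over TGF-β1; green, luteolin + TGF-β1 over control); whiskers are exact 95% counting intervals and dotted lines mark 2-fold. SNAI1 and PRRX1 share a ratio of 2.06 for TGF-β1 over control, and TWIST2 has the ratio furthest below 0 against TGF-β1, at -2.27.

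The 250 bases upstream of a start in the RefSeq promoter table are shown for 3 of the called genes, because their levels differed between libraries. RefSeq promoter entries (GRCh38.p14) were matched for 6 of the 9 genes. SNAI1, SNAI2 and TWIST1 had no entry. RUNX2 has a distal and a proximal start. Both strands of all 4 windows were searched for 5 motifs, and capitals mark the matches: CCAAT (reverse complement ATTGG) in PRRX1 and TWIST2; TGTGGT (reverse complement ACCACA, the runt-domain motif), TGANTCA (the AP-1 motif) and CANNTG (the E-box) in RUNX2.
PRRX1 promoter: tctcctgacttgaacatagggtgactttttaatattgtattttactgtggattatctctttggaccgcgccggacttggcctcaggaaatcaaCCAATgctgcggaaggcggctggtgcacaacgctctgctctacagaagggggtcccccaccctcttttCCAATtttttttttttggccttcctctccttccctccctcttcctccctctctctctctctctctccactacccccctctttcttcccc
TWIST2 promoter: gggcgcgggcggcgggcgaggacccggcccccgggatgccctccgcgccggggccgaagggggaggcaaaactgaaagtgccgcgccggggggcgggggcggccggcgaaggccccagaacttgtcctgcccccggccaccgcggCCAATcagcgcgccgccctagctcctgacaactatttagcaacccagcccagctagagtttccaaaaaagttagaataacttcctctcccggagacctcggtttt
RUNX2 distal promoter: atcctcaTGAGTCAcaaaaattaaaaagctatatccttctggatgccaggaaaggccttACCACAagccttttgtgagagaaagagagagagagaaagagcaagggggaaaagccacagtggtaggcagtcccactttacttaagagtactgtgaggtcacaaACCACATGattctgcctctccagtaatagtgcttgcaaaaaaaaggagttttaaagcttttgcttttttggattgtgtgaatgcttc
RUNX2 proximal promoter: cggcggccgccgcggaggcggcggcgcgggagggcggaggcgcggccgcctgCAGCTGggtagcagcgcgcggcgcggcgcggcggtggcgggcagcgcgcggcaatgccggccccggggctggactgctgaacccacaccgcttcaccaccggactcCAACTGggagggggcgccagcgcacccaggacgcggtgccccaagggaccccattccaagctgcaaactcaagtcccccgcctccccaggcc

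These windows are chr1:170663881-170664130 for PRRX1, chr2:238847835-238848084 for TWIST2, and chr6:45328080-45328329 and chr6:45422025-45422274 for RUNX2, all on the plus strand. The TWIST2 and distal RUNX2 windows end at the start of the gene as annotated, but the PRRX1 entry starts 1363 bases and the proximal RUNX2 entry 93945 bases into the annotated gene, so those windows lie within the span of each gene. PRRX1 held 2 copies of CCAAT and TWIST2 held 1, a motif present in 32.0% of 35116 promoters of the same length. The distal RUNX2 window held 2 runt-domain motifs (11.0% of promoters hold at least 1), 1 AP-1 motif (6.57%) and 1 E-box (61.8%), which overlaps the second runt-domain motif. The proximal RUNX2 window held 2 E-boxes and no runt-domain motif. The SMAD box CAGAC (reverse complement GTCTG), present in 38.0% of promoters, was in none of these windows. A match is a run of letters and not a shown binding site. The gene counts do not separate transcripts from either RUNX2 start.

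Levels were compared between genes per length, as the length-normalised TPM values that the authors deposited. In the control, ZEB1 (92.9 TPM) and SNAI2 (70.9) led, followed by TWIST2 (38.7), PRRX1 (31.9), RUNX1 (20.9), TWIST1 (20.2), SNAI1 (13.7), ZEB2 (10.8) and RUNX2 (7.04). RUNX1 and TWIST1 did not differ beyond counting error, and the intervals of SNAI1 (11.3 to 16.4) and ZEB2 (10.2 to 11.4) overlapped at their ends. With TGF-β1, PRRX1 moved to the top at 129 TPM, ahead of ZEB1 (89.1) and SNAI2 (88.2), which could not be told apart. TWIST2 (60.1) and SNAI1 (55.2) followed with overlapping intervals, then RUNX1 (35.4), TWIST1 (14.9), ZEB2 (8.24) and RUNX2 (4.87). With the combination, SNAI2 (72.7), ZEB1 (61.3) and PRRX1 (50.3) led, RUNX1 (32.0) and SNAI1 (28.6) overlapped, and TWIST2 (10.7), ZEB2 (7.10), TWIST1 (5.53) and RUNX2 (1.32) were lowest. ZEB2 and TWIST1 overlapped there too. The summed level of the 9 genes was 307 TPM in the control, 485 TPM with TGF-β1 and 269.5 TPM with the combination. In TMM-scaled CPM the sums were 509, 794 and 568, so whether the combination lay above or below the control depended on the unit.

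Ratios of TPM between paralogs within a library need no scaling between libraries, and they show how each pair shifted. TWIST2 over TWIST1 was 1.91 in the control, 4.03 with TGF-β1 and 1.94 with the combination, a 2.10-fold change (1.59 to 2.79) with TGF-β1 and a 2.07-fold change back (1.32 to 3.22). SNAI2 over SNAI1 was 5.19, 1.60 and 2.55 in the same order. SNAI2 thus remained the more abundant of the pair in every library, though its lead was 3.25-fold smaller (2.58 to 4.12) with TGF-β1 than in the control.

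RUNX1 over RUNX2 was 2.97 in the control, 7.27 with TGF-β1 and 24.3 with the combination. The balance shifted towards RUNX1 at each step, by 2.45-fold (1.98 to 3.04) and by 3.34-fold (2.35 to 4.83). PRRX1 over PRRX2, its homeobox paralog, was 0.613, 5.75 and 11.9. PRRX2 was the more abundant in the control and PRRX1 in both other libraries, with a change of 9.38-fold (7.47 to 11.9) for TGF-β1 over control. ZEB1 over ZEB2 moved least, at 8.60, 10.8 and 8.63.

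**Figure D3:**
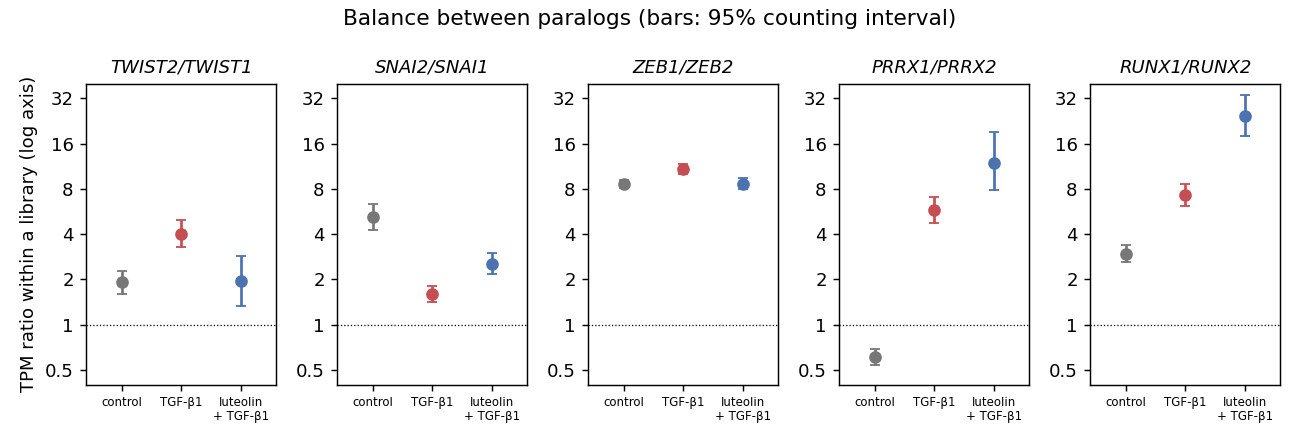
Ratio of deposited TPM between paralogs within each library (log axis), with 95% counting intervals; 1 point per library. RUNX1/RUNX2 climbs from 2.97 to 24.3, PRRX1/PRRX2 crosses 1, SNAI2/SNAI1 is lowest with TGF-β1 and ZEB1/ZEB2 stays between 8.60 and 10.8.

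Among the 8804 genes with at least 100 counts in each library, likeness was measured as the Euclidean distance over 2 log2 ratios, TGF-β1 over control and the combination over TGF-β1. Nearest to SNAI1 were BPGM (distance 0.172), TENM3 (0.210) and HIC1 (0.219), and nearest to PRRX1 were HIC1 (0.264), TENM3 (0.294) and NRP2 (0.307). No gene lay within 0.1 of either. HIC1, a zinc finger repressor, had 606, 1733 and 841 counts and ratios of 1.93 and -0.92. By contrast 164 genes lay within 0.1 of ZEB1 (nearest RPL35A, SSR2 and MYCBP2), 117 of ZEB2 (MED7, NDUFB1 and FBXO30), 114 of SNAI2 (TBC1D10B, FBXL6 and MEX3C) and 10 of RUNX1 (RNF121, TEX2 and WDR24). TWIST1, TWIST2 and RUNX2 had under 100 counts in the combination and were not placed. The likeness rests on 3 libraries, and TGF-β1 enters both ratios.

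In the authors' deposited table, adjusted p-values under 0.05 were given to 4 of the 9 genes as higher with TGF-β1, namely PRRX1 (1.1e-19), SNAI1 (7.4e-14), RUNX1 (0.0015) and TWIST2 (0.024). For the combination against TGF-β1 the authors' deposited table gave 0 as higher and 5 as lower, TWIST2 (1.9e-15), PRRX1 (1.3e-06), RUNX2 (1.8e-06), TWIST1 (0.0014) and SNAI1 (0.012). Of all 15418 genes with a p-value there, 5.97% were higher and 7.70% lower with TGF-β1, and 20.0% and 20.8% in the second comparison. Each p-value in the authors' deposited table was matched by the exact test of edgeR at a dispersion set to 0.01, within 0.001 in log10 p, so they carry a preset spread and not one measured between replicates.

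Of 10 listed partners and paralogs of the factors, 7 were abundant enough, of which 1 was higher (TCF4) and 1 lower (PRRX2) with TGF-β1. In the combination against TGF-β1, 0 were higher and 2 lower (PRRX2 and RUNX1T1). Counts in this and the following gene lists stand beside 3.70% of all genes higher and 6.67% lower with TGF-β1. Against TGF-β1 those shares were 12.5% and 14.8%. TCF4 encodes an E protein that pairs with TWIST factors. It had 733, 2259 and 2357 counts. It was high in both TGF-β1 libraries, 4.11-fold above the control (log2 2.04, 1.92 to 2.16) and then 0.19 (0.10 to 0.27) above that. The other E proteins differed by less than 2-fold: TCF3 had 2070, 2250 and 1237 counts and TCF12 had 2251, 1745 and 1104. Of the summed TPM of the 3 E proteins, TCF4 accounted for 4.31%, 12.7% and 20.8% in the same order.

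PRRX2 had 330, 110 and 22 counts, the opposite order to PRRX1 for TGF-β1 against control, with ratios of -1.17 (-1.49 to -0.85) and -2.20 (-2.93 to -1.53). RUNX1T1, a co-repressor named from its fusion with RUNX1, had 186, 121 and 23 counts and a ratio of -2.27 (-2.98 to -1.62) against TGF-β1. CBFB, the shared partner subunit of RUNX proteins, had 1393, 1095 and 627 counts. Its ratios were 0.07 (-0.05 to 0.18) and -0.68 (-0.82 to -0.53), neither at 2-fold. SNAI3 had 1, 0 and 1 counts.

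ID proteins lack a DNA-binding region and sequester E proteins away from TWIST. ID1 and ID3 were called higher with TGF-β1, 2 of the 4 ID genes, and none differed by 2-fold between the combination and TGF-β1. ID3 had 989, 2618 and 3340 counts, 3.53-fold higher with TGF-β1 (log2 1.82, 1.71 to 1.93), and ID1 had 274, 578 and 601, 2.81-fold higher (1.49, 1.28 to 1.70). Both remained high with the combination, where TWIST1 and TWIST2 were lowest.

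Of 16 co-repressor genes compared, 1 was higher (TLE1, 1.17) and 1 lower (LIMD1, -1.16) with TGF-β1, beside 3.70% and 6.67% of all genes. With the combination against TGF-β1, 3 were lower, beside 14.8% of all genes. The 3 lower genes were EZH2, the histone H3 methyltransferase of the Polycomb complex, KDM1A, a histone demethylase recruited by SNAI1, and SIN3A, a scaffold for histone deacetylases. EZH2 had 541, 443 and 69 counts, a ratio of -2.56 (-2.94 to -2.19), while KDM1A and SIN3A were at -1.10 and -1.11. The median over the 16 genes was -0.56, beside -0.04 for all genes. Of 12 genes that govern SNAI protein phosphorylation and turnover, none was called with TGF-β1 and only PAK1, a kinase that phosphorylates SNAI1, was called against TGF-β1, lower at -1.29. Protein was not measured.

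Epithelial genes that SNAI and ZEB proteins are known to repress went both ways. Of 25, 11 reached 1 CPM in the control or TGF-β1 library, and 2 were higher and 4 lower with TGF-β1. CLDN1, a tight junction claudin, had 795, 73 and 24 counts, highest in the control, with ratios of -3.03 (-3.40 to -2.68) and -1.48 (-2.21 to -0.80). PKP3 (-2.52, at 46 and 6 counts), KRT19 (-1.33, at 84 and 25 counts) and CLDN7, at 24 and 6 counts, were the others that were lower. CLDN4 and DSP went the other way: CLDN4 had 18, 81 and 3 counts (2.58, 1.83 to 3.41), and DSP, the desmosome protein desmoplakin, had 171, 665 and 624 (2.37, 2.13 to 2.63). Direction thus differed within the list. SNAI1 was highest in the same TGF-β1 library, and whether it bears on these genes was not tested. In the combination against TGF-β1, 0 of 8 were higher and 4 lower. The lower genes were CLDN4 (-4.63, -6.94 to -3.03, from 3 counts), KRT18 (-1.76), KRT19 (-1.71, -3.16 to -0.46, at 25 and 7 counts) and CLDN1.

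Among genes of the mesenchymal state, some of them also fibroblast markers, 6 of 16 were higher and 0 lower with TGF-β1, with a median of 0.67. FN1, fibronectin, was at 3.05, MMP2, a matrix metalloproteinase, at 1.94, and CDH2, N-cadherin, had 1040, 4358 and 6418 counts and a ratio of 2.48 (2.38 to 2.58). Set against TGF-β1, the combination had 4 of them higher and 2 lower, with a median of 0.36. SPARC, a matrix glycoprotein, was 2.83-fold higher, and PDGFRB (log2 1.20), LOX (1.09) and ITGA5 (1.07) were higher too, while S100A4 (-1.61) and TNC were lower. The calls of PDGFRB, LOX, ITGA5 and TNC depended on the scaling, and with total counts only SPARC of the genes called higher stayed past 2-fold. TNC, the matrix protein tenascin-C, had 7853, 13076 and 5664 counts and ratios of 1.15 (1.11 to 1.19) and -1.08 (-1.13 to -1.04). It was highest with TGF-β1, as PRRX1 was, and in the combination it was close to the control (0.07, 0.02 to 0.12). VIM, vimentin, had 98118, 81303 and 59607 counts and did not reach 2-fold. CDH2 was highest in the library where TWIST1, TWIST2 and RUNX2 were lowest.

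Of 15 skeletal genes linked to RUNX2, 5 reached 1 CPM, and 3 were higher with TGF-β1 (COL10A1, VDR and ALPL). SP7, the osteoblast factor downstream of RUNX2, had no counts in any library. ALPL, alkaline phosphatase, had 79, 132 and 44 counts, with 1.16 (0.74 to 1.58) and -1.46 (-1.99 to -0.96). COL10A1, a hypertrophic cartilage collagen, had 3, 22 and 110 counts, 3.29 (1.55 to 5.67) and 2.45 (1.78 to 3.18), and was highest where RUNX2 was lowest. VDR, the vitamin D receptor, had 415, 777 and 1229 counts.

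**Figure D4:**
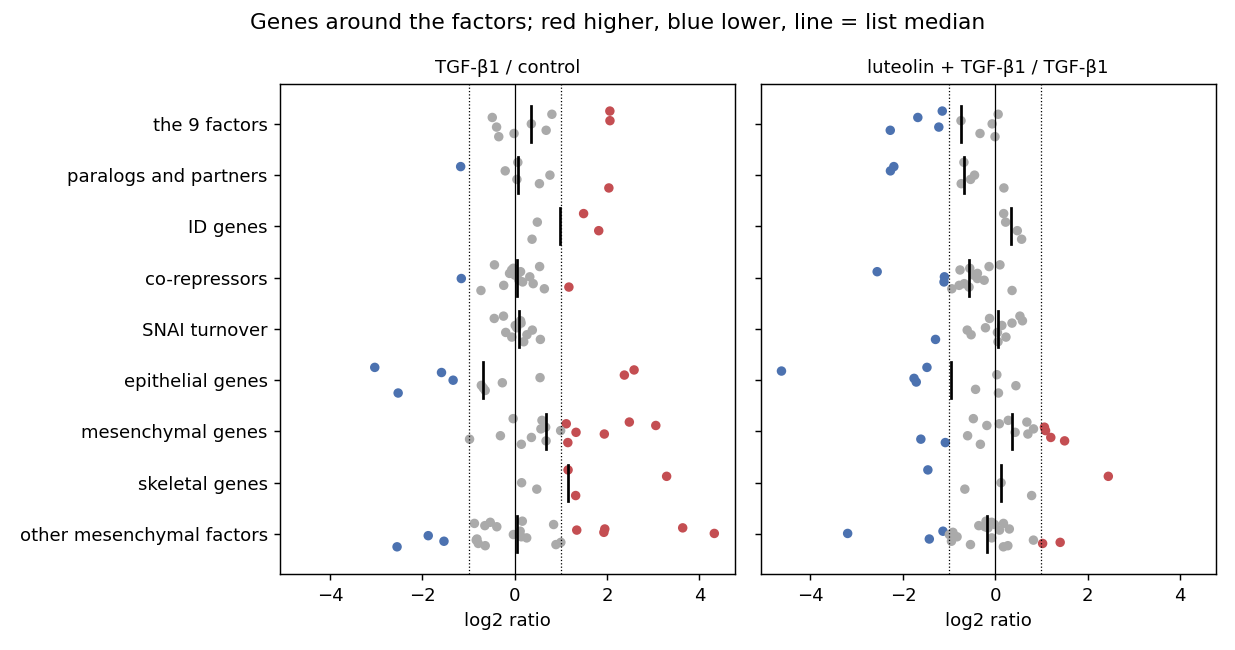
Log2 ratios of TMM-scaled counts for the 9 genes and for 8 lists of related genes, for TGF-β1 against control (left) and luteolin + TGF-β1 against TGF-β1 (right). Each point is a gene, red and blue points were called higher and lower, and vertical bars are list medians. FOXS1, with 0 counts in the control, is drawn with that 0 taken as 3 counts. Mesenchymal genes have medians of 0.67 and 0.36 and the 9 genes 0.36 and -0.74.

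The miRNA libraries were read for miRNAs that are reported to regulate these factors. Mature sequences (RefSeq, GRCh38.p14) are shown with the seed, bases 2 to 8, in capitals, since the seed decides which sites a miRNA recognises. The miR-34 family is reported to target SNAI1, the miR-30 family SNAI1 and SNAI2, miR-335 RUNX2, miR-17 and miR-20a RUNX1, and the miR-200 family ZEB1 and ZEB2.
miR-34a-5p: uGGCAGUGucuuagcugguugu
miR-30a-5p: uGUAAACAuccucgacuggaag
miR-30c-5p: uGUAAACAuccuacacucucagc
miR-30e-5p: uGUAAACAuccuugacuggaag
miR-335-5p: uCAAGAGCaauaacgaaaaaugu
miR-17-5p: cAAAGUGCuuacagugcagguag
miR-20a-5p: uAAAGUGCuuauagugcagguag
miR-200b-3p: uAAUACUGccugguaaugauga
miR-200c-3p: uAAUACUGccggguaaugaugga

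The miR-30 members share the seed GUAAACA, miR-17-5p and miR-20a-5p share AAAGUGC, and miR-200b-3p and miR-200c-3p share AAUACUG. The limit for comparing a miRNA was 10 CPM in either library. Against the control, 14.5% of 358 miRNAs were called higher with TGF-β1 and 37.2% lower, with a median of -0.52, so lower values were common; with upper quartile scaling that median was -0.13. Between the combination and TGF-β1, 33.6% of 342 were higher and 17.3% lower, with a median of 0.29, or 0.05 with total counts.

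Of the 9 SNAI-linked miRNAs found, 7 were compared. With TGF-β1, 0 were higher and 6 lower, and against TGF-β1 all 7 were higher with the combination. The 6 lower calls became 5 with total counts, DESeq2 size factors and upper quartile scaling, where miR-30c-5p was at -0.98, -0.93 and -0.74, while the 7 higher calls stood under all of these. miR-34a-5p had 4364 CPM in the control, 869 with TGF-β1 and 5147 with the combination, lowest where SNAI1 was highest. Its log2 ratios were -2.33 and 2.57, and the first was -1.98 with upper quartile scaling. miR-30a-5p had 269, 66.1 and 201 CPM, in the same order, with ratios of -2.03 and 1.60. Also lower with TGF-β1 were miR-34c-5p (-2.77), miR-30b-5p (-2.58), miR-30e-5p (-1.54) and miR-30c-5p (-1.09), whereas miR-30d-5p was at -0.30. In the combination against TGF-β1 these were at 1.36, 1.90, 1.30, 1.39 and 1.26. Whether these differences bear on SNAI1 was not tested.

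Of 10 RUNX-linked miRNAs, 7 were compared with TGF-β1, 1 higher and 3 lower, and 6 against TGF-β1, 3 higher and 1 lower. miR-335-5p had 4105, 231 and 2297 CPM, the lowest value with TGF-β1, and ratios of -4.15 and 3.31. RUNX2 was lowest in another library, that with the combination. miR-20a-5p had 2354, 288 and 621 CPM (-3.03 and 1.11), and miR-17-5p, encoded in the same cluster on chromosome 13, had 240, 303 and 93.3 (0.33 and -1.70). With total counts the miR-20a-5p ratio against TGF-β1 was 0.90, under 2-fold. miR-106b-5p was lower with TGF-β1 (-1.12), though under 2-fold with DESeq2 size factors (-0.96) and upper quartile scaling (-0.77), miR-27b-3p was higher with TGF-β1 (1.25) and miR-27a-3p higher against TGF-β1 (1.30).

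None of the miR-200 family or miR-205, the known repressors of ZEB1 and ZEB2, reached 10 CPM in any library. miR-200c-3p had 50, 47 and 29 counts and miR-200b-3p 21, 5 and 24, while miR-429 had 17, 0 and 8. ZEB1 was among the most abundant of the 9 genes in every library. Of 5 miRNAs known downstream of TWIST1 that were compared, 0 were called with TGF-β1, and against TGF-β1 1 was higher (miR-214-3p, 2.04) and 2 were lower (miR-199b-5p at -1.37 and miR-199a-5p at -1.29). With each of the other scalings 2 of the 5, miR-199a-5p and miR-214-5p, passed 2-fold as higher with TGF-β1, from 0.97 and 0.91 with TMM. The lower calls against TGF-β1 numbered 4 with total counts and DESeq2 size factors, where miR-199a-3p and miR-214-5p were added. With upper quartile scaling they numbered 3, with miR-199a-3p added.

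**Figure D5:**
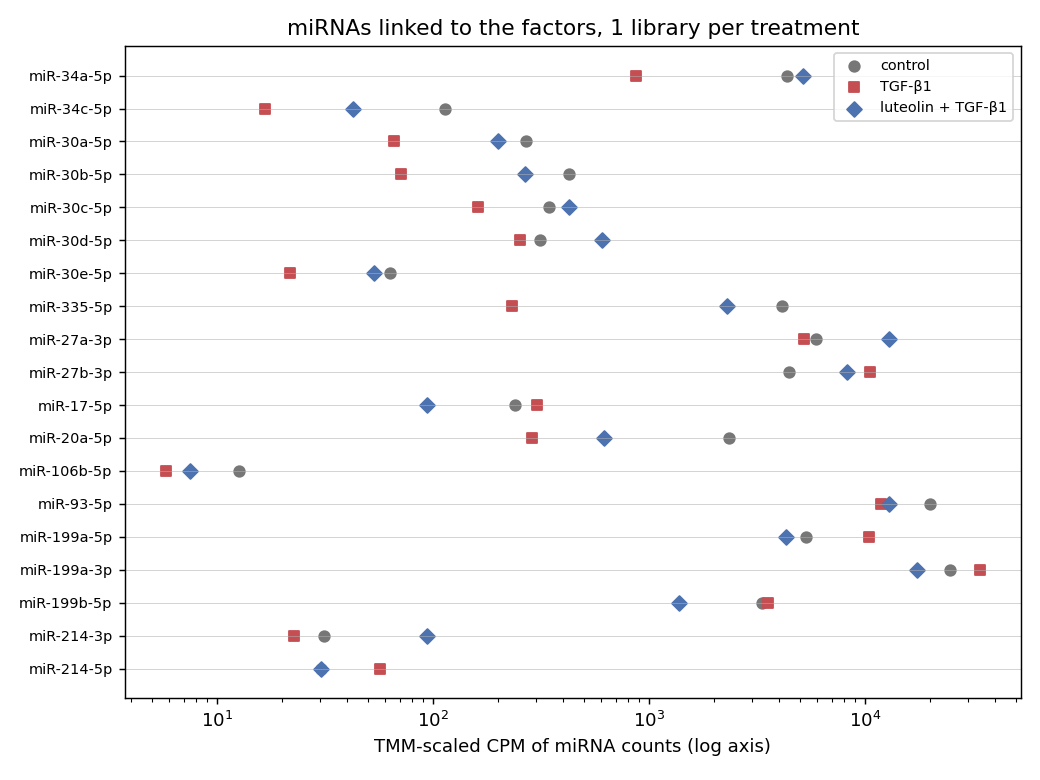
TMM-scaled CPM (log axis) of miRNAs linked to the factors that reached 10 CPM in a library, 1 point per library. miR-34a-5p, the miR-30 family and miR-335-5p have their lowest point with TGF-β1, while miR-17-5p is lowest with luteolin + TGF-β1.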

How the data were processed

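Messenger RNA and small RNA of MRC5 cells were sequenced from TRIzol-extracted RNA with TruSeq Stranded mRNA and TruSeq Small RNA kits, per the labels' protocols. Groups came from the sample titles. The authors deposited counts per Ensembl gene and per mature miRNA, TPM per gene, and log2 fold changes with p-values between single libraries, per the file headers. The submitters' processing notes name the build hg38, edgeR 3.36.0, featureCounts 2.0.1, HISAT2 2.1.0 and fastp 0.20.0. Not given in the sources used here are the annotation release, the miRNA aligner and whether counting used strand. The deposited miRNA columns headed CPM were not used, because they do not sum to the same total.

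Counts were scaled by TMM factors from edgeR 4.0.16 (R 4.3.3), in the order control, TGF-β1, combination 1.11, 1.02 and 0.879 (mRNA) or 1.00, 1.08 and 0.929 (miRNA). Ratios of 2 counts have Clopper-Pearson 95% intervals (scipy 1.17.1) conditional on the sum of both counts. Changes of a paralog ratio between libraries have exact conditional 95% intervals of the odds ratio. Changes of the miRNA pair ratios have approximate (Wald) 95% intervals on the log scale. A count of 0 was taken at a floor of 3 counts per library, which is 0.151, 0.201 and 0.219 CPM for mRNA. Calls needed 2-fold and 1 CPM, or 10 CPM for miRNAs. The procedure was also run on counts simulated with counting error only. These hold no spread between cultures, so the run cannot test the calls for it. Positions and promoters are from RefSeq GRCh38.p14, whose assembly is that of hg38.

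All 9 genes are named. From the other lists, called genes were named up to the 4 furthest from equality in each direction, with CBFB, TCF3, TCF4, TCF12, CDH1, CDH2, TNC, VIM, COL10A1 and SP7 always, as were the 3 genes most like each member, every called listed miRNA and the miR-200 family; 1 called gene is not reported here. The genes and lists were chosen with earlier results of these data known. Alternatives were total counts, DESeq2 1.42.0 size factors, upper quartile scaling, ratios of TPM, other abundance filters and other fold limits.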

Additional observations from a re-analysis of the deposited data

How the results depend on the processing

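No paired analysis was possible because each group had 1 library per assay. With no replicates, nothing separates treatment from culture. Over the scalings, 74 of the single-gene ratios stayed within their counting interval and 34 moved beyond it, none changing direction among called values. Of the 9 genes, those higher in the combination against control numbered 0 with total counts, 3 with upper quartile scaling, 3 at a 1.5-fold limit and 0 at 3-fold (1 as reported). At 1.5-fold, 4 were higher with TGF-β1 (SNAI1, PRRX1, TWIST2 and RUNX1), and at 3-fold 2 remained lower against TGF-β1 (TWIST2 and RUNX2). Over all genes, total counts gave 1077 higher against control with the combination. A 5 CPM filter, which tests fewer genes, gave 300 higher and 506 lower for TGF-β1 over control, 975 higher against TGF-β1 and 1049 higher for the combination over control. A 1.5-fold limit gave 1112 higher and 1653 lower, 2914 and 3332, and 2818 and 3639 in these 3 comparisons, and a 3-fold limit 231 and 432, 853 and 1107, and 913 and 1406. The miRNA alternatives were chosen after seeing the data. Listed miRNAs higher with TGF-β1 numbered 3 with total counts, DESeq2 size factors and upper quartile scaling (1 as reported), and those lower with TGF-β1 numbered 8, 7 and 7 (9 as reported). Those lower against TGF-β1 numbered 5 with total counts and with DESeq2, and those higher against control 4 with upper quartile scaling. For the changes with scaling, the cause was not tested. RUNX2 and TWIST1 rest on 43 and 44 counts with the combination, which sets the width of their intervals.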

Other observations

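Other mesenchymal transcription factors moved in both directions. Of 24 compared with TGF-β1, 5 were higher and 3 lower, with a median of 0.04, beside 3.70% and 6.67% of all genes. MEOX1, a homeobox factor, had 2 counts in the control, 30 with TGF-β1 and 3 with the combination of luteolin and TGF-β1, with ratios of 4.32 (2.34 to 7.43) and -3.20 (-5.55 to -1.51). FOXS1, a forkhead factor, had 0, 28 and 23 counts. It was 12.4-fold higher with TGF-β1 when the 0 was taken at the floor of 3 counts, a value that is not a lower limit. The Hedgehog effectors GLI1 (1.95) and GLI2 (1.34) and the repressor HIC1 (1.93) were higher. Those lower included TCF21 (-2.55), a factor of lung fibroblasts, and MSX2 (-1.87). With the combination against TGF-β1, 2 of 24 were higher (SOX4 at 1.41 and TBX2 at 1.03) and 3 lower (MEOX1, OSR1 at -1.43 and GLI3 at -1.13). The shares of all genes there were 12.5% and 14.8%. The calls of TBX2 and GLI3 depended on the scaling, as TBX2 fell short of 2-fold with total counts and GLI3 with upper quartile scaling.

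ZEB1-AS1 was 1.30 higher on the log2 scale with the combination than with TGF-β1, where ZEB1 itself was at -0.33; reads of the antisense pair cannot be told apart without the strand setting. miR-17-5p over miR-20a-5p, which are encoded in 1 cluster, changed 10.3-fold (9.65 to 11.0) with TGF-β1 and 7.0-fold back with the combination. The ratio of the miR-214-3p arm to the miR-214-5p arm of the same hairpin was 2.58-fold smaller with TGF-β1 than in the control and 7.71-fold larger (6.28 to 9.47) with the combination than with TGF-β1. These values were noticed after the data were seen.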
